A study of Mus musculus with 12 samples.

Results

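Tgm1, Ier5l, Fam222a, Dusp14, Lbh and Rcan1 are 6 genes whose mRNA was lower in the kidneys of mice given SK-124, an inhibitor of salt-inducible kinases (SIKs). The study reports a rise of each with parathyroid hormone (PTH). They were chosen by their fall in the same mice as described here, so their fold changes are descriptions and carry no test. The 6 genes stand among 55401 gene identifiers in the deposited tables, of which 14159 passed the filter on low counts, and all 6 passed it. The rise with PTH was measured in other mice, which were not analysed here. In the study's whole-kidney RNA-Seq, the PTH mice belonged to a separate experiment, were older and were injected under the skin. The rise there and the fall here therefore differ in more than the agent given.

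Whole-kidney RNA was sequenced from 12 male C57BL6 mice aged 8 weeks, as 1 library per mouse. Each mouse received a single intraperitoneal injection, either of SK-124 at 40 mg/kg (n = 6) or of the vehicle, 15% 2-hydroxypropyl-beta-cyclodextrin (n = 6). The study's text names no separate time of collection for these libraries, and no mouse analysed here received PTH.

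PTH acts on the kidney tubule through a receptor that raises cyclic AMP and activates protein kinase A (PKA). PKA phosphorylates the SIKs, which then release their substrates, among them the CRTC coactivators that enter the nucleus and work with the transcription factor CREB. A SIK inhibitor therefore acts below PKA in this pathway, and PKA has many substrates besides the SIKs. In the kidney PTH is known for inducing Cyp27b1, which makes active vitamin D, and for lowering phosphate uptake. The study proposes that SIKs may have no part in the effect of PTH on phosphate.

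CREB binds the cyclic AMP response element (CRE), whose full form is TGACGTCA and whose core is TGACG. Both were searched on both strands in RefSeq promoter windows of 300 bases (GRCm38.p6), from 250 bases before a start site to 50 bases after it, and each full form also counts as a core. The full form stood in 1.8% of the 32544 windows of all genes and the core in 20.9%. Of the 8 windows of the 6 members (2 each for Tgm1 and Rcan1), 1 held the full form and 2 held the core. These 2 stretches are shown because they are the members' own CRE matches, with the match in capitals. The Rcan1 stretch lies before the internal start of a shorter Rcan1 transcript, inside an intron of the longer transcripts, at chr16:92400216-92400283 on the minus strand. The Lbh stretch lies just upstream of that gene, at chr17:72918181-72918245 on the plus strand.

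Rcan1: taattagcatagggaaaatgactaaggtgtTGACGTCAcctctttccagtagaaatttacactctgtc
Lbh: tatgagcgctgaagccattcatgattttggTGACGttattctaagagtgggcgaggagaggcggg

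The match starts 175 bases before the start site in Rcan1 and 94 bases before it in Lbh. No window of Tgm1, Ier5l, Fam222a or Dusp14 held either form, but the windows did not cover every annotated start. The Fam222a window takes its start at chr5:114568251, while annotated transcripts begin at 114568016 and 114568017, so little sequence upstream of them was searched. The Dusp14 window is for the start at chr11:84068357, while annotated transcripts also begin at 84068579, 84068801 and 84069261. Among 14 known CREB targets, 12 genes had a window and all 12 had the core. Being CREB targets is why they were listed, so this share is no measure of the members. The full form stood in 2 of the 12, Dusp1 and Btg2. Their stretches are shown beside those of the members, Dusp1 at chr17:26508578-26508645 and Btg2 at chr1:134079284-134079351, both on the minus strand and with the full form in capitals.

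Dusp1: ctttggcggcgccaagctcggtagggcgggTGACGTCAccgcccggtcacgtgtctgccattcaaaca
Btg2: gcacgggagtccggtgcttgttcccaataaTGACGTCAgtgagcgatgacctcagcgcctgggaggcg

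A match is a run of letters and not a measured binding site, and a window without one says nothing of sites elsewhere. Other motifs gave few matches in the members. The AP-1 motif TGACTCA (5.19% of all windows) stood 110 bases before the same internal start of Rcan1, and the E-box CACGTG (7.17%) stood in the window of an upstream Rcan1 start. The NFAT core GGAAA, present in 61.5% of all windows, stood in windows of 3 members. The FoxO motif GTAAACA (3.66% of all windows) and the glucocorticoid response element (0.00922%) stood in none of the 8.

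The libraries were alike in depth. Expected counts, the reads that the RSEM program assigned to each gene, summed to between 19350134 and 19771802 per vehicle mouse and to between 19244227 and 19530313 per SK-124 mouse. Values in CPM below are these counts, rounded and scaled to library size with edgeR's TMM factors, and the members had between 64 and 1582 counts per mouse. The 10 genes with the most counts took 39.9% to 43.2% of each vehicle library, 44.4% to 46.8% in SK-124 mice 1 to 3 and 38.6% to 40.2% in SK-124 mice 4 to 6. Transcripts in the kidney responded to the treatment: Cyp27b1 rose from 3.12 to 8.54 CPM in vehicle mice to 21.5 to 43.3 CPM in SK-124 mice (log2 fold change 2.56 ± 0.22 SE, FDR 2.35e-07 by edgeR's quasi-likelihood test). Cyp24a1, which breaks down active vitamin D, fell (log2 fold change -2.32 ± 0.48 SE, FDR 0.00154), with SK-124 mouse 4 at 44.6 CPM within the vehicle range of 41.3 to 146 CPM. Across the 14159 genes tested, 10.8% were called higher and 13.5% lower at an FDR under 0.05, 24.4% in all, and in 6.65% all 6 SK-124 mice lay below all 6 vehicle mice.

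Among the members the fall was deepest in Tgm1 and Ier5l and shallowest in Lbh and Rcan1. Their log2 fold changes ran from -1.35 to -0.47 with a median of -0.66, beside a median of -0.01 over all genes tested and a 5th percentile of -0.60. Tgm1, Ier5l, Fam222a and Dusp14 lay below that percentile and Lbh and Rcan1 above it. The groups did not overlap in 3 of the 6 members, Ier5l, Fam222a and Dusp14, where the same pattern held in 6.65% of all genes. Because the members were selected on this fall, nothing is read from these counts.

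**Figure D1:**
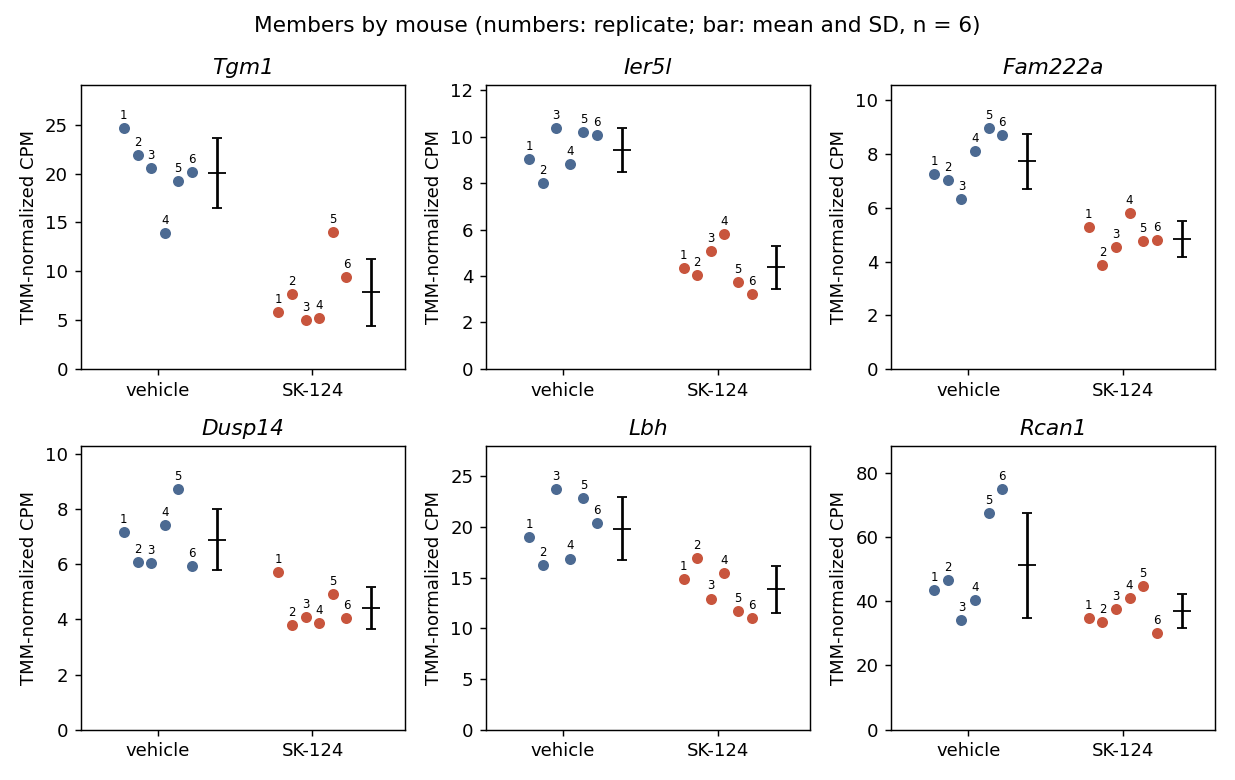
TMM-normalized CPM of each member in each mouse (points numbered by replicate), with the mean and SD of each group of 6 beside them. The groups stand apart in Ier5l, Fam222a and Dusp14, touch in Tgm1 and Lbh through 1 or 2 mice, and overlap widely in Rcan1, where vehicle mice 5 and 6 are highest.

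Tgm1 (ENSMUSG00000022218.16, GRCm38 chr14:55700009-55713926, minus strand) encodes transglutaminase 1, which cross-links proteins of the cornified envelope in skin. Its level in vehicle mice was lowest at 13.9, median 20.4 and highest at 24.6 CPM (mean 20.1 ± 3.57 SD, n = 6). With SK-124 it was lowest at 5.04, median 6.72 and highest at 14.0 CPM (mean 7.85 ± 3.43 SD, n = 6). SK-124 mouse 5, the highest of its group, stood level with vehicle mouse 4, the lowest of the other, and the remaining 5 mice of each group were apart. Leaving out either of these 2 mice removed the overlap.

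By the edgeR estimate, the level of Tgm1 with SK-124 was 39.4% of that with vehicle (log2 fold change -1.35 ± 0.20 SE), and 73 of the 14159 genes had a lower log2 fold change. SK-124 mice 1 to 3 ranged from 5.04 to 7.66 CPM and mice 4 to 6 from 5.25 to 14.0 CPM. Against all vehicle mice, the log2 fold change was -1.70 with mice 1 to 3 alone and -1.07 with mice 4 to 6 alone. It was -1.60 without SK-124 mouse 5. The spread between mice was wide with SK-124, with a coefficient of variation of 43.7% against 17.8% with vehicle. An annotated antisense gene, Gm49067, overlaps Tgm1 and had no counts in any mouse.

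Ier5l (ENSMUSG00000089762.3, chr2:30471537-30474219, minus strand) is a single-exon relative of the immediate early gene Ier5. Vehicle mice had a lowest value of 8.03, a median of 9.56 and a highest value of 10.4 CPM (mean 9.42 ± 0.938 SD, n = 6). SK-124 mice had a lowest value of 3.24, a median of 4.19 and a highest value of 5.79 CPM (mean 4.38 ± 0.928 SD, n = 6). Every SK-124 mouse was below every vehicle mouse, with SK-124 mouse 4 and vehicle mouse 2 the nearest to each other. The level with SK-124 was 46.5% of that with vehicle (log2 fold change -1.11 ± 0.12 SE).

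Fam222a (ENSMUSG00000041930.7, chr5:114568016-114613220, plus strand) encodes a protein found in amyloid plaques. Its values were 6.33 at the lowest, 7.69 at the median and 8.97 CPM at the highest in vehicle mice (mean 7.74 ± 1.03 SD, n = 6). They were 3.86, 4.79 and 5.79 CPM in SK-124 mice (mean 4.84 ± 0.656 SD, n = 6). The groups did not overlap, the nearest mice being vehicle mouse 3 and SK-124 mouse 4. The level with SK-124 was 62.6% of that with vehicle (log2 fold change -0.68 ± 0.11 SE).

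Dusp14 (ENSMUSG00000018648.15, chr11:84048041-84069261, minus strand) encodes a dual-specificity phosphatase that acts on MAP kinases and on the TAK1-TAB1 complex. In vehicle mice the lowest value was 5.92, the median 6.63 and the highest 8.73 CPM (mean 6.89 ± 1.10 SD, n = 6). In SK-124 mice the lowest was 3.80, the median 4.07 and the highest 5.73 CPM (mean 4.41 ± 0.762 SD, n = 6). The groups were separated by a narrow gap, with SK-124 mouse 1 at 5.73 CPM just below vehicle mouse 6 at 5.92 CPM. The level with SK-124 was 63.9% of that with vehicle (log2 fold change -0.65 ± 0.12 SE).

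Lbh (ENSMUSG00000024063.13, chr17:72918305-72941947, plus strand) encodes a transcription cofactor named for its expression in limb bud and heart, and its gene is a target of Wnt signalling. Vehicle mice ranged from 16.2 to 23.7 CPM with a median of 19.7 (mean 19.8 ± 3.06 SD, n = 6). SK-124 mice ranged from 11.05 to 16.9 CPM with a median of 13.9 (mean 13.8 ± 2.31 SD, n = 6). SK-124 mouse 2 lay above the 2 lowest vehicle mice, the other 5 SK-124 mice lay below all vehicle mice, and the groups did not overlap without SK-124 mouse 2. The level with SK-124 was 69.6% of that with vehicle (log2 fold change -0.52 ± 0.11 SE).

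Rcan1 (ENSMUSG00000022951.16, chr16:92391953-92470867, minus strand) encodes a regulator of the phosphatase calcineurin and is itself a target of the calcineurin-driven factor NFAT. Vehicle mice had a lowest value of 34.2, a median of 44.99 and a highest value of 74.97 CPM (mean 51.2 ± 16.2 SD, n = 6). SK-124 mice had a lowest value of 30.2, a median of 36.1 and a highest value of 44.8 CPM (mean 37.0 ± 5.31 SD, n = 6). The groups overlapped: 2 of the SK-124 mice lay below all vehicle mice, and 3 of the vehicle mice lay above all SK-124 mice.

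Rcan1 was the least separated of the 6. The level with SK-124 was 72.3% of that with vehicle (log2 fold change -0.47 ± 0.16 SE). Vehicle mice 5 and 6, at 67.5 and 74.97 CPM, stood above the other 4 of their group, and the coefficient of variation was 31.7% with vehicle against 14.4% with SK-124. Without vehicle mouse 6 the log2 fold change was -0.33, and without vehicle mouse 5 it was -0.37. The overlapping antisense gene Gm46555 had no counts.

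**Figure D2:**
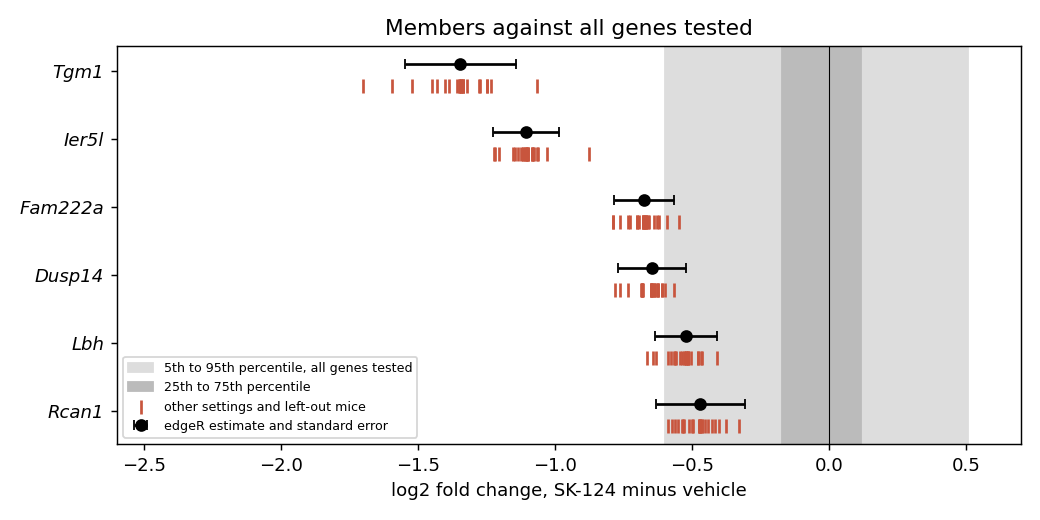
Log2 fold change (SK-124 minus vehicle) of each member, as the edgeR estimate with its standard error (black) and as the values under other settings and with mice left out (red marks), over the 5th to 95th and 25th to 75th percentiles of all 14159 genes tested (grey). Tgm1 has the widest range of values, from -1.70 to -1.07, and all marks of all members lie below 0.

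The members' levels can be ordered only per transcript length, in the deposited TPM, which is scaled to length and to the library. In vehicle mice Rcan1 was highest at 25.5 ± 10.3 TPM (SD, n = 6), followed by Tgm1 at 7.29 ± 1.44, Lbh at 6.40 ± 1.09, Dusp14 at 6.02 ± 1.38, Ier5l at 3.51 ± 0.455 and Fam222a at 2.63 ± 0.488. Tgm1, Lbh and Dusp14, neighbours in this order, lay within 1 SD of each other. In SK-124 mice Rcan1 was again highest at 16.3 TPM, and Tgm1, at 2.66 TPM, stood behind Lbh at 3.98 and Dusp14 at 3.45, while Fam222a at 1.49 and Ier5l at 1.46 were level. In bulk tissue, fewer cells of a type and less RNA per cell cannot be told apart, so a lower level of any of these genes may be either.

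The length that RSEM weights over all annotated transcripts of a gene does not tell the internal start of Rcan1 from its upstream ones, since transcripts of similar length come from both. For Rcan1 it was 2100 ± 54.4 bases with vehicle and 2101 ± 89.5 bases with SK-124 (SD, n = 6 each). The weighted length of Dusp14 was 1270 ± 66.4 bases and 1271 ± 69.4 bases. In both genes the group means differed by less than the spread between mice. For Tgm1 it was 2749 ± 31.8 bases and 2714 ± 109 bases, and SK-124 mouse 2 was lowest at 2492 bases.

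Within a group, mice low in one member were not in general low in the others. Deviations of log2(CPM + 0.5) from the group means were correlated over the 12 mice for the 15 pairs of members, as a description. Pearson's r ran from -0.62 to 0.64 with a median of 0.09, and 9 of the 15 values were above 0. It was highest for Ier5l with Lbh and for Fam222a with Rcan1, both at 0.64, and lowest for Tgm1 with Ier5l at -0.62. In vehicle mice alone, Ier5l and Lbh had r = 0.94, with vehicle mice 3, 5 and 6 the 3 highest in both genes. On the TPM scale, which shares each library's composition among all genes, the median was 0.38 and 14 of the 15 values were above 0.

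**Figure D3:**
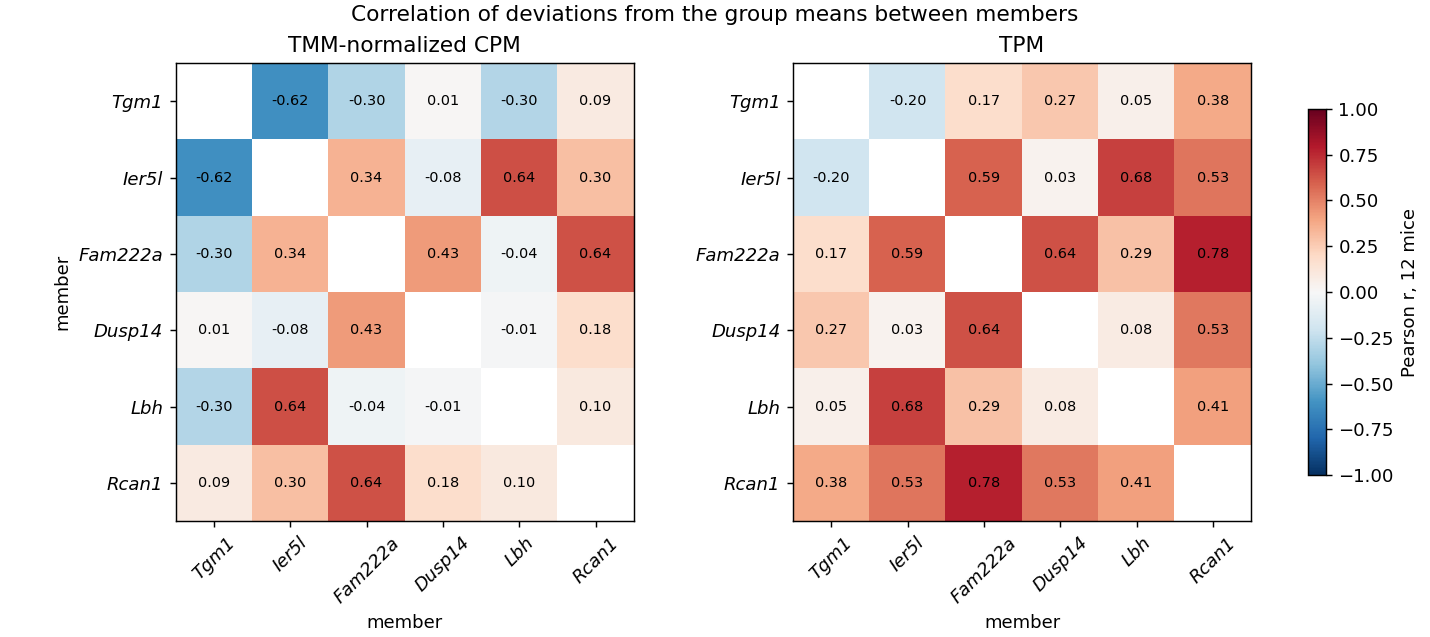
Pearson correlation between members of the deviations from the group means over 12 mice, from TMM-normalized CPM (left) and from TPM (right), with red for positive and blue for negative values. On the CPM scale values run from -0.62 to 0.64 and on the TPM scale from -0.20 to 0.78.

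Of the 13008 genes that averaged 1 CPM or more, those whose deviations were most like each member's differed from member to member. For Tgm1 they included Dpp7 (r = 0.93) and Hsp90ab1 (0.91), and for Ier5l they were Anxa7 (0.91), Zfyve21 (0.90) and Gtpbp1 (0.89). Fam222a was most like Pde2a (0.96), Dll1 (0.94) and Dlc1 (0.94). Dusp14 was most like Rasgrp1 (0.85), Hoxb3 (0.85) and Tbc1d24 (0.84), and Lbh was most like Tmem14a (0.90), Meox1 (0.87) and Sh3bp1 (0.86). Rcan1 was most like Fchsd1 (0.95), Bicd2 (0.92) and Cep135 (0.88). These are the extremes of many correlations over 12 mice that share library composition, and carry no test.

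The members' relatives and partners were then read from lists of related genes, none of which holds a member. Of 115 genes listed, 93 passed the filter, 22 of them were called higher, 17 lower and 54 not called, with a median log2 fold change of -0.02 beside -0.01 over all genes. The 39 called genes are 41.9% of the 93, where 24.4% of all genes were called, and 13 of the 39 were CREB targets. The lists were drawn up with earlier results of these mice known, so nothing is read from this share.

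For Rcan1, the calcineurin-NFAT list had 17 genes tested, of which 15 were not called and the median log2 fold change was -0.06. Nfatc2, an NFAT transcription factor, fell (log2 fold change -0.75, FDR 0.000163). Dyrk1a, a kinase that phosphorylates NFAT, was called higher (log2 fold change 0.28, FDR 0.0115), a call that was lost under library totals alone (0.17), in both limma analyses of TPM (0.11 and 0.13) and with SK-124 mice 1 to 3 or 4 to 6 alone. The closest relatives were not called, with log2 fold changes of -0.14 for Rcan2 (FDR 0.18) and -0.07 for Rcan3 (FDR 0.61).

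For Tgm1, none of the 3 other transglutaminase genes tested was called, and Tgm2, which is widely expressed, had a log2 fold change of -0.16 (FDR 0.0553). Tgm2 was called lower in 6 alternatives: DESeq2 (FDR 0.0446), at least 10 counts in every mouse (0.0461), library totals alone (0.00581), the limma analyses of TPM (0.0187 and 0.0188) and without SK-124 mouse 2 (0.00694). Of 4 genes of the cornified envelope tested, Evpl fell and 3 were not called. Evpl encodes envoplakin, an envelope scaffold protein that transglutaminase 1 cross-links, and it went from 22.9 ± 2.13 to 8.87 ± 1.14 CPM (SD, n = 6 each, log2 fold change -1.37 ± 0.09 SE, FDR 4.04e-09). Its lowest vehicle mouse was at 19.3 CPM and its highest SK-124 mouse at 10.6 CPM, so the groups did not overlap. None of the 4 urothelium and keratinocyte markers tested was called, and their list summed to between 4.06 and 10.6 TPM with vehicle and between 4.02 and 12.2 TPM with SK-124.

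For Ier5l, 11 genes of the IER family and of the PP2A-B55 phosphatase, the partner of IER5 proteins, were tested, of which 4 rose, 2 fell and 5 were not called. Ier5, the nearest relative, fell from 7.63 ± 0.751 to 5.06 ± 0.810 CPM (SD, n = 6 each, log2 fold change -0.59 ± 0.10 SE, FDR 0.000459). Ppp2r2b, a brain-rich B55 subunit, fell by 0.70 on the log2 scale. Ier3, a stress-induced relative by name, rose (log2 fold change 1.03, FDR 7.85e-05), as did the PP2A subunit genes Ppp2r1b (0.61), Ppp2r2d (0.26) and Ppp2cb (0.19). The calls of Ppp2r2d and Ppp2cb were lost under library totals alone and in both limma analyses of TPM. That of Ppp2cb was also lost with no filter on low counts, without SK-124 mouse 3 and with SK-124 mice 1 to 3 alone.

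For Fam222a, the one relative, Fam222b, had a log2 fold change of -0.13 (FDR 0.21). For Dusp14, 3 of 10 other atypical dual-specificity phosphatases fell and none rose, beside 13.5% of all genes called lower and 24.4% called either way. The 3 were Dusp15 (log2 fold change -0.72, FDR 0.000175), Dusp19 (-0.39, FDR 0.0168) and Dusp22 (-0.20, FDR 0.0256). The call of Dusp19 was lost with SK-124 mice 1 to 3 alone (FDR 0.0781) and with mice 4 to 6 alone (FDR 0.0768). The call of Dusp22 was lost in 8 alternatives, with no filter on low counts, in both limma analyses of TPM, without vehicle mouse 2, vehicle mouse 4 or SK-124 mouse 6, and with SK-124 mice 1 to 3 or 4 to 6 alone. Dusp3, which like Dusp14 acts on MAP kinases, had a log2 fold change of 0.14 (FDR 0.0974), and one of -0.03 in both limma analyses of TPM. Of the 4 genes of the TAK1-TAB complex, Tab1 fell by 0.33 on the log2 scale (FDR 0.00632) and 3 were not called.

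For Lbh, 5 of 11 genes of its family and of the Wnt targets tested fell and none rose, where 13.5% of all genes were called lower. The median log2 fold change was -0.58, and 6 genes were not called. Those included the family member Lbhd1 (-0.21, FDR 0.31) and the Wnt targets Axin2 (-0.40, FDR 0.27) and Znrf3 (0.22, FDR 0.12). Ccnd1, the gene of the cell cycle regulator cyclin D1, went from 107 ± 12.8 to 55.7 ± 6.14 CPM (SD, n = 6 each, log2 fold change -0.94 ± 0.08 SE, FDR 3.28e-07). The Wnt feedback genes Nkd1 (-0.79), Notum (-0.70) and Apcdd1 (-0.58) and the transcription factor gene Sp5 (-0.36) fell too. The call of Apcdd1 was lost in 8 of the 12 analyses that left out 1 mouse, with log2 fold changes from -0.62 to -0.40 in those 8. That of Nkd1 was lost with SK-124 mice 4 to 6 alone (FDR 0.0793) and that of Sp5 with mice 1 to 3 alone (FDR 0.178).

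In the PTH receptor pathway itself 5 of 19 genes rose, 4 fell and 10 were not called. Pde4d, a phosphodiesterase that breaks down cyclic AMP, rose (log2 fold change 0.95), as did the SIK genes Sik1 (0.80), Sik2 (0.65) and Sik3 (0.49). SK-124 acts on SIK2 and SIK3 and only weakly on SIK1. Adcy9, an adenylyl cyclase gene (-0.39), and the PKA catalytic subunit genes Prkacb and Prkaca (both -0.21) fell. The calls of Adcy9, Prkacb and Prkaca were each lost when single mice were left out.

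The members were chosen for their fall, so their direction beside that of the known CREB targets is not a result. Of those targets, 13 of 14 rose and none fell, with a median log2 fold change of 1.79. Nr4a3 (5.20), Nr4a2 (3.60) and Nr4a1 (2.80), orphan nuclear receptor genes, had the highest log2 fold changes. Nr4a3 and Nr4a2 were at most 0.284 and 0.948 CPM in vehicle mice, and with limma on log2(TPM + 1) their log2 fold changes were 1.28 and 1.20, below the 2.31 of Nr4a1. Without vehicle mouse 5, Nr4a1 had a log2 fold change of 3.69. Ppargc1a (0.66), Sik1 (0.80) and Junb (1.15) had the lowest among those that rose, and Fos had 0.13 (FDR 0.92). These targets were listed for their known response to cyclic AMP, with earlier results of these mice known.

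**Figure D4:**
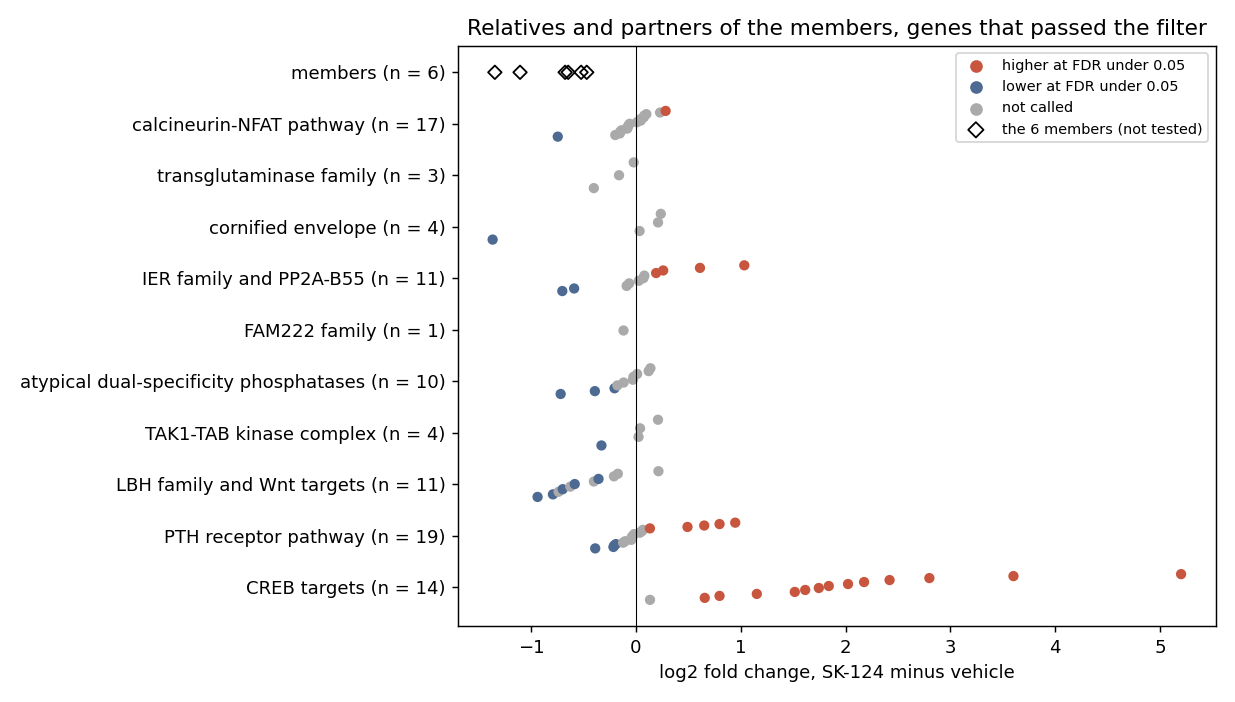
Log2 fold change (SK-124 minus vehicle) of each gene that passed the filter in the lists of relatives and partners, coloured by its call, with the 6 members as open diamonds. All called CREB targets lie above 0, all called Wnt-list and atypical phosphatase genes lie below 0, and most calcineurin-NFAT genes lie near 0.

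Genes beside the members on the chromosome were examined after the members' values were seen. Of the 12 nearest tested genes, 1 on each side of each member, 2 were called: Ptpa beside Ier5l fell (log2 fold change -0.19, FDR 0.00792) and Lclat1 beside Lbh rose (0.24, FDR 0.0213). The nearest of all, Rabggta, 1490 bases from Tgm1, had a log2 fold change of -0.13 (FDR 0.129), and Trpv4, 8932 bases from Fam222a, had one of 0.00 (FDR 0.999).

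Markers of kidney cell types were read beside these values. The tissue carried its defining markers: the 5 proximal tubule markers summed to between 3553 and 4234 TPM with vehicle and between 3011 and 3872 TPM with SK-124, and none was called. Of 5 endothelial markers, Kdr (-0.85) and Ehd3 (-0.87) fell and 3 were not called: Emcn (-0.24), Pecam1 (0.07) and Cdh5 (0.29). The endothelial list summed to 56.6 to 81.9 TPM with vehicle and 38.3 to 74.0 TPM with SK-124. Of 4 fibroblast and pericyte markers, Pdgfrb fell (-0.93) and 3 were not called: Col1a1 (-0.47), Pdgfra (-0.10) and Dcn (-0.04). That list summed to 24.3 to 32.9 TPM with vehicle and 15.0 to 29.9 TPM with SK-124. Of 4 smooth muscle markers, Acta2 (0.41) and Tagln (0.55) rose, and Myh11 (-0.05) and Cnn1 (0.74) were not called. The smooth muscle list summed to 16.9 to 27.4 TPM with vehicle and 19.8 to 36.3 TPM with SK-124. The 1 lymphocyte marker tested, Cd79a, fell, and the lymphocyte list summed to at most 1.52 TPM in any mouse. The part of these cell types in the members' lower levels was not tested.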

How the data were processed

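Whole-kidney RNA of 12 mice was sequenced, 1 library per mouse, with groups taken from the sample labels. The authors deposited RSEM gene tables with expected counts and TPM, and per the labels used STAR 2.7.2b, RSEM 1.3.0 and the mm10 build. The strand setting and the annotation are not given in the sources used here. Of 55401 identifiers, 55141 matched GENCODE M21 (GRCm38).

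Expected counts were rounded, filtered (filterByExpr), scaled with TMM and tested with edgeR 4.0.16 (quasi-likelihood, Benjamini-Hochberg FDR threshold 0.05, no replicate block) in R 4.3.3. This left 14159 genes, with a biological coefficient of variation of 0.101. The replicate numbers name different mice, and the labels do not say which mice shared a cage or day. The fit was tested on simulated data. Among 30 pairs of mice of 1 group, none looked like a duplicated library (smallest chi-square per degree of freedom 4.69).

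The members and the gene lists were chosen with earlier results of these data known. Named are the 6 members, genes of each list that were called (if over 6, the 3 highest and 3 lowest), the closest relatives, Cyp27b1 and Cyp24a1, and the 3 genes most correlated with each member (1 of these genes is not reported here), while cell type markers and neighbours were picked with their values in view. The settings tried instead were DESeq2 1.42.0, RLE factors, library totals, other filters, unrounded counts, a replicate block, limma 3.58.1 on log2 TPM with pseudocounts of 1 or 0.1, omission of each mouse, and SK-124 mice 1 to 3 or 4 to 6 alone. Depth limits mainly the members with few counts, and intervals for shares of counts were not needed.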

Additional observations from a re-analysis of the deposited data

Results flagged for a closer look

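In 7 of 84 groups of 6 mice examined, 1 mouse stood far from the other 5 by Dixon's test, where chance alone gives about 1 in 20, or 4.2. None of them concerned a member. SK-124 mouse 4 was apart in Ier5 at 6.68 CPM and in Cyp24a1 at 44.6 CPM, the highest of its group in both. Vehicle mouse 5 was apart in the CREB targets Junb at 55.4 CPM and Nr4a1 at 22.9 CPM. Vehicle mouse 3 was apart in Adcy9 at 5.01 CPM and in Ppargc1a at 54.5 CPM. Vehicle mouse 6 was apart in Dusp15 at 7.39 CPM, the lowest of its group.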

How the results depend on the processing

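All 6 members, chosen for their fall in these same mice, kept a log2 fold change below 0 under every alternative. Of their 138 alternative values, 137 moved by less than the spread between replicates. That allowance is wide for the shallow falls, at 0.34 for Rcan1 beside its log2 fold change of -0.47. The exception was Ier5l at -0.88 with limma on log2(TPM + 1), where the added 1 shrinks the change of a low gene. With 1 mouse left out the log2 fold changes ran from -1.60 to -1.25 for Tgm1, -1.21 to -1.03 for Ier5l, -0.73 to -0.62 for Fam222a, -0.73 to -0.57 for Dusp14, -0.59 to -0.46 for Lbh and -0.56 to -0.33 for Rcan1. Counts of genes over the whole table ran from 1320 to 1863 higher and from 1633 to 2079 lower with 1 mouse left out, the called related genes from 34 to 41 and the called CREB targets from 13 to 14. Library totals alone shifted the median of all genes to -0.12 and gave 777 genes higher and 3058 lower, against 1536 and 1917, and relative to that shift the members ran from -1.33 to -0.47. The limma analyses of TPM, whose medians were -0.11 and -0.14, called 500 genes higher and 2130 lower with log2(TPM + 1), and 498 higher and 2118 lower with log2(TPM + 0.1). With fewer mice, SK-124 mice 1 to 3 alone gave 1065 genes higher and 1233 lower, and mice 4 to 6 alone 1179 and 1267. Of 826 alternative values of the named related genes, Cyp27b1 and Cyp24a1, 61 lost their call and 10 gained one, and the cause was not tested. Of these losses 10 came with SK-124 mice 1 to 3 alone and 7 with mice 4 to 6 alone. Dyrk1a, Dusp19, Dusp22, Apcdd1, Adcy9 and Junb lost their call in both. No called value changed sign, and Dusp3, not called, had the other sign in 2 values, both from limma on TPM. With the replicate number as a replicate block, Rcan1 had -0.43 and 37 related genes were called against 39, with Apcdd1 and Prkacb losing their call. Same-numbered mice showed no clear shared deviation (r from -0.13 to 0.22, 2 of 6 correlating best with their own number). These values give no sign of pairing by number but cannot exclude a shared cage or day.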
